A study of Caenorhabditis elegans with 2 samples.

Results

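Regions at autosomal transfer RNA (tRNA) genes were 317 of the 30000 regions in the pooled list of a chromatin immunoprecipitation and sequencing (ChIP-seq) experiment on the transcription factor LSY-27 of Caenorhabditis elegans. They made up 1.26% of the 25250 pooled regions on the 5 autosomes. A region was a member when its summit, the point of highest signal that the authors gave, lay within 500 bp of an annotated tRNA gene. The 317 regions were all 316 bp wide, and they lay at 295 of the 336 autosomal tRNA genes (87.8%). LSY-27 is a C2H2 zinc finger protein that helps the left and right ASE neurons, which sense taste, to become different from each other. The animals were whole young adult hermaphrodites of the transgenic strain OP401, in which LSY-27 carried a C-terminal GFP and FLAG tag, and the sample descriptions name an anti-GFP antibody whereas the antibody label reads lsy-27. The 2 biological replicates bear the numbers 2 and 3 and form 1 group, with no group lacking the tag. Tissue is not resolved in whole animals, and the sources used here do not give what drives the tagged gene. With 1 group, each comparison is a description, either across genomic regions or between the 2 replicates.

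A tRNA carries an amino acid to the ribosome and reads the matching codon, and the set of tRNAs for the same amino acid is called an isotype. tRNA genes are transcribed by RNA polymerase III from a promoter inside the gene, made of an A box near the 5′ end and a B box further downstream. Transcription factor TFIIIC binds these boxes, TFIIIB is then placed just upstream, and the polymerase follows. Worm tRNA genes occur as many near-identical copies, often in introns of protein-coding genes.

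The following autosomal tRNA genes, from RefSeq on build WBcel235 (ce11), show the letters under the results below. Each is written 5′ to 3′ on its own strand with the A box match in capitals first and the B box match in capitals second. The B box was searched as GTTCNANNC on the gene's strand, and the A box by its eukaryotic consensus. T23F1.t2 is at the strongest member, and W09D6.t1 has the same sequence at another site. F10C1.t1, W09G10.t3, F14F7.t1 and ZC455.t1 are at other members among the 10 strongest. F22B7.t1 has an annotated intron and is at the strongest member nearest to a leucine gene. Y43F4A.t1 and F36D4.t1 are at the strongest and the weakest member of the tyrosine isotype. Y69A2AR.t2 has no exact B box match and K11H12.t1, the only selenocysteine (Sec) gene, no A box match.
T23F1.t2 (Pro), chrV:15465225-15465296, minus strand: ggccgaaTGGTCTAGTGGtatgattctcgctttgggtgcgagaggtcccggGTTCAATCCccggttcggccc
W09D6.t1 (Pro), chrIII:11067027-11067098, plus strand: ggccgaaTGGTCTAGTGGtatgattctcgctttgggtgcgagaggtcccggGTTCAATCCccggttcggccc
F10C1.t1 (Gly), chrII:5782212-5782282, minus strand: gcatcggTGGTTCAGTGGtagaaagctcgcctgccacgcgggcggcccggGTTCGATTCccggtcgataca
W09G10.t3 (Thr), chrII:3519086-3519157, minus strand: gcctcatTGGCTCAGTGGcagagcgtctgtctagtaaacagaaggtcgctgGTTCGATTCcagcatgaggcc
F14F7.t1 (Thr), chrIII:13016107-13016178, minus strand: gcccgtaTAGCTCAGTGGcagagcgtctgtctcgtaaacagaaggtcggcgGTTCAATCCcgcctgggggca
ZC455.t1 (Ser), chrV:12780386-12780467, minus strand: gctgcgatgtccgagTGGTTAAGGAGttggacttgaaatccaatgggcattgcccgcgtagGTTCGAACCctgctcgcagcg
F22B7.t1 (Leu), chrIII:8639306-8639425, plus strand: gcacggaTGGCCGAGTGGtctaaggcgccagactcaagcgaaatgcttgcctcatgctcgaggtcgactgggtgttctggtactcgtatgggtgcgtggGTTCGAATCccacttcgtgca
Y43F4A.t1 (Tyr), chrIII:13224566-13224649, plus strand: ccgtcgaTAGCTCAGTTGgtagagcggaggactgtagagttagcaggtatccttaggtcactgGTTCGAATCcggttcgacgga
F36D4.t1 (Tyr), chrV:9412205-9412291, minus strand: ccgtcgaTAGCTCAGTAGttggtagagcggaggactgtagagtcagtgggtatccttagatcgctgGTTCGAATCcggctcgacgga
Y69A2AR.t2 (Glu), chrIV:2639809-2639880, minus strand: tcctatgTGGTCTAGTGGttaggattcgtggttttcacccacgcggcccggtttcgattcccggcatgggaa
K11H12.t1 (Sec), chrIV:658181-658266, plus strand: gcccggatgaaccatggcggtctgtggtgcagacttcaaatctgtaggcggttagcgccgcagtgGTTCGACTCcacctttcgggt

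The members had high signal for this list. Their median signal, the authors' score for each region, was 13.3 (quartiles 7.24 and 20.3, range 2.99 to 51.4), against a median of 4.78 over the other 24933 autosomal regions (quartiles 3.74 and 6.54). Ranked over the whole pooled list with the highest signal first, the median member stood at 4.08% of the list, against 50.2% for the other autosomal regions. Among the 3000 highest signals were 204 members (64.4%), against 10% of all autosomal regions. The authors' thresholded list, made with the irreproducible discovery rate from both replicates and the pooled list, held 60 members as regions of its own (18.9%), against 0.974% of all autosomal regions. By an overlap of 1 bp, 63 members (19.9%) met a thresholded region, against 1.06%. The thresholded list depends on the same signal, so these counts are not separate evidence. The sources used here do not give the scaling of the signal, and the depth behind it is unknown.

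**Figure D1:**
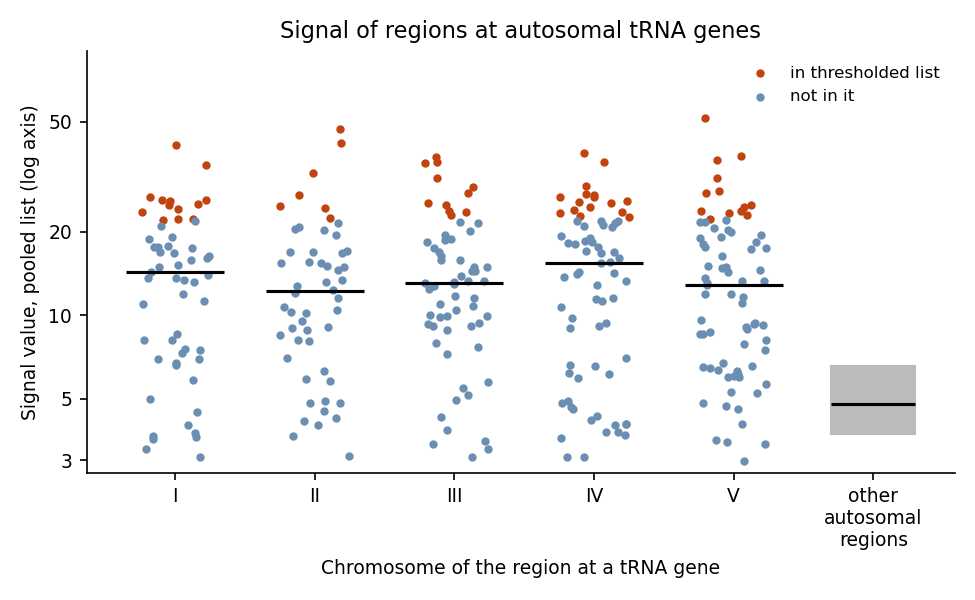
Signal in the pooled list (log axis) of each of the 317 regions at tRNA genes by chromosome, with a line at the median and orange points for thresholded regions. The grey box spans the quartiles of the other 24933 autosomal regions, with a line at their median of 4.78. The chromosome medians of the members lie between 12.2 and 15.4.

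The strongest member, with a signal of 51.4, spanned 15465039 to 15465354 on chromosome V between protein-coding genes. Its summit lay between T23F1.t2, a proline gene, and T23F1.t1, a lysine gene, at 28 bp from the end of T23F1.t2. Its signals in the separate lists were 18.6 in replicate 2 and 32.2 in replicate 3. The second, at the glycine gene F10C1.t1 (chromosome II, 5782003 to 5782318), had a pooled signal of 47.1, with 5.17 in replicate 2 and 39.6 in replicate 3. Its summit was 121 bp downstream of the gene's 5′ end, so past the 71 bp of the gene. Replicate 3 placed this region in the first 0.0852% of its list and replicate 2 at 13.6%. The third, with a pooled signal of 41.8 and replicate signals of 18.6 and 24.8 in replicates 2 and 3, lay 46 bp upstream of the threonine gene W09G10.t3 (chromosome II, 3519045 to 3519360), with the lysine gene W09G10.t2 also within 500 bp.

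The next 7 had pooled signals from 35.7 to 41.3. They lay at the isoleucine gene T09B4.t1 (chromosome I, 41.3), the aspartate gene K02D7.t1 (chromosome IV, 38.6), the serine gene ZC455.t1 (chromosome V, 37.6) and the threonine gene F14F7.t1 (chromosome III, 37.2). The remaining ones were at the glutamine gene T03E6.t1 (chromosome V, 36.2), the lysine gene B0350.t1 (chromosome IV, 35.7) and the asparagine gene ZK507.t1 (chromosome III, 35.7). The 10 strongest thus came from 9 isotypes, with threonine present in 2 of them by the nearest gene. All 10 were thresholded regions and matched in both replicates, where their signals ranged from 5.17 to 18.6 in replicate 2 and from 17.2 to 39.6 in replicate 3. At the other end, the lowest 2 members had signals of 3.07 at the glycine gene T04D3.t1 (chromosome I) and 2.99 at the tyrosine gene F36D4.t1 (chromosome V). T04D3.t1 was matched in neither replicate, and F36D4.t1 in replicate 3 alone with a signal of 2.55. The member just inside the distance of 500 bp was at Y82E9BR.t1 (glycine, chromosome III, 497 bp, signal 11.5), and the region just outside at F58D5.t1 (valine, chromosome I, 514 bp, signal 10.5).

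Across chromosomes the members were alike in number and level. There were 57 on chromosome I, 52 on II, 62 on III, 71 on IV and 75 on V, with median signals of 14.3, 12.2, 13.1, 15.4 and 12.9 in that order. The share of tRNA genes with a summit was 80.3% on chromosome I (53 of 66) and between 87.2% and 91.2% on the other autosomes. Median signals of all autosomal pooled regions ran from 4.69 on V to 4.89 on II.

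Other gene classes give a scale for these shares. Beside the 87.8% of autosomal tRNA genes with a summit, 246 of 276 on the X chromosome (89.1%) had one within 500 bp. Of the autosomal members 18.9% were thresholded regions, against 61 (26.0%) of the 235 regions at X tRNA genes, whose median signal was 14.2. Small nucleolar RNA (snoRNA) genes, whose products guide the modification of ribosomal RNA, had a summit at 220 of 313 autosomal genes (70.3%), with a median signal of 8.49 over 261 regions. Of those regions 54 (20.7%) were thresholded, a share above that of the members, and their highest signal was 60.7. Autosomal tRNA pseudogenes, degenerate copies annotated as such, had one at 66 of 180 (36.7%), with a median signal of 4.93 over 66 regions, of which 3 were thresholded. The 5′ windows of autosomal protein-coding genes, from 1000 bp upstream to 200 bp downstream, held a pooled summit for 7309 of 17241 genes (42.4%), although these windows are longer than those around tRNA genes.

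Most summits lay in or near the tRNA gene. Of the 317 summits, 137 (43.2%) lay inside the gene, 100 upstream and 80 downstream, and 265 lay within 100 bp of it, out of the 500 bp allowed on each side. Counting the first base of the gene as 0, the median summit lay at 27 bp (quartiles −10 and 75), and at 26.5 bp for the 60 thresholded members. The rule reaches equally far on both sides, so a median inside the gene follows from it. The median signal was 16.1 for summits inside the gene, 12.3 upstream and 8.25 downstream. It was 14.5 at 1 to 50 bp from the gene (105 members), 13.2 at 51 to 100 bp (23 members), 5.78 at 101 to 200 bp (25 members) and 4.83 at 201 to 500 bp (27 members). The last of these values is close to the 4.78 of the other autosomal regions. Across the 317 members, signal and distance to the gene had a Spearman rho of −0.41, where the points share their libraries and some share a gene. Of the 60 thresholded members, 57 had the summit inside the gene or within 50 bp of it.

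**Figure D2:**
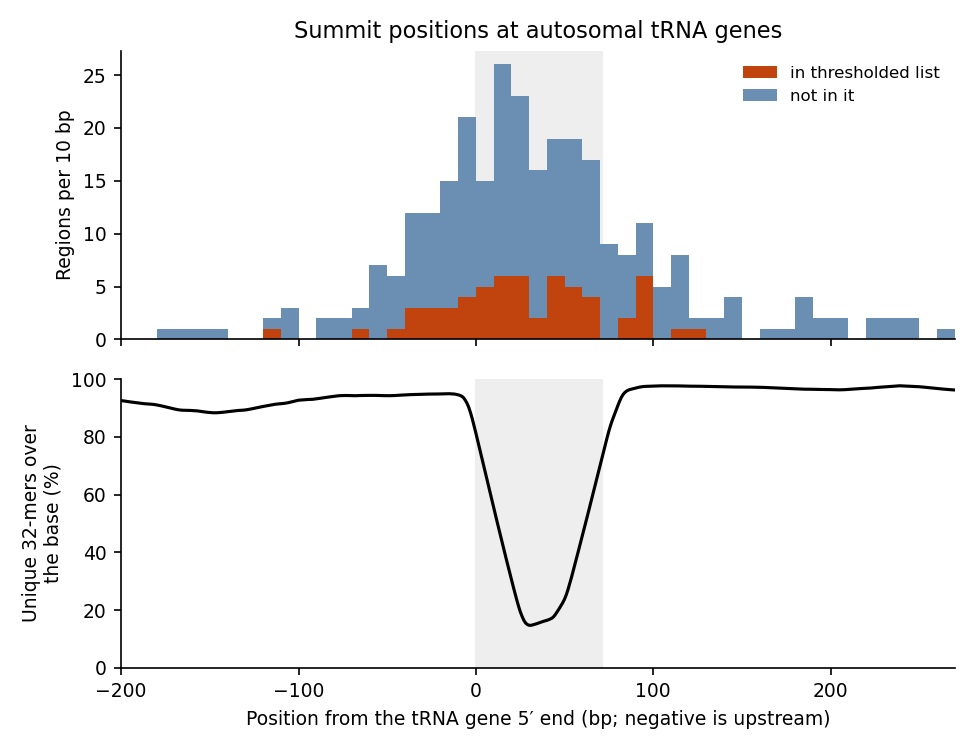
Top, summits per 10 bp from the 5′ end of the nearest tRNA gene for the 290 members between −200 and 269 bp, with thresholded members in orange. Bottom, mean percent of the 32-mers over each base that occur once in the genome, over 336 autosomal tRNA genes. The grey band marks a gene of 72 bp, where summits are densest and unique 32-mers fall to 14.7%.

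The internal promoter letters were counted in every autosomal tRNA gene. An exact A box match was found in 322 of the 336 genes, with the first match starting at a median of 7 bp (3 to 19 bp). In the serine gene ZC455.t1 the match printed above starts at 15 bp, and no exact match starts at 7 bp. An exact B box match was found in 319 genes, with the first match starting at a median of 52 bp (24 to 101 bp). The value of 24 bp is that of the 7 tryptophan genes, each of which has a second match at 51 bp. Both boxes were present in 278 of the 295 genes with a member (94.2%) and in 29 of the 41 genes without one (70.7%). Counted the other way, 278 of 307 genes with both boxes had a summit (90.6%), with a median best signal of 15.8, against 17 of 29 genes lacking an exact match to either or both (58.6%), with 7.91. The best signal is the highest of any member within 500 bp of the gene. Genes with only an A box match had a summit in 10 of 15 cases, and those with only a B box match in 6 of 12. Among the 86 genes of unique sequence, 55 of 68 with both boxes had a summit (80.9%), and 10 of 18 without (55.6%). Allowing 1 mismatch in each box lowered the difference between genes with and without a member to 7.32 percentage points. Of the 180 pseudogenes, 144 (80.0%) had both matches. A match says only that these letters occur.

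In windows of 101 bp centred on the summits, read on both strands, the B box letters occurred in 145 of the 317 members (45.7%), against 3.44% of the other autosomal regions. The A box consensus occurred in 52.7%, against 6.17%. For the 137 summits inside a gene the shares were 86.1% for the B box and 79.6% for the A box, while for the 52 summits over 100 bp away they were 1.92% and 7.69%. The median GC content was 47.5% in member windows, against 36.6% in the others. The rule places members at tRNA genes, so these letters follow from it.

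tRNA genes with no member were examined as a group. Of these 41 genes, 21 had a sequence found once among nuclear tRNA genes, and in 11 at least 90% of the 32-mers were unique in the genome. Separate lists held a summit within 500 bp for 4 of the 41 in replicate 2 and for 8 in replicate 3, or 11 in either. In all, 306 of the 336 genes had a summit in at least 1 of the 3 lists and 214 (63.7%) had one in every list.

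Copy number went with the presence of a region. Of the 86 autosomal genes whose sequence has 1 copy among nuclear tRNA genes, 65 had a summit (75.6%). The share was 75 of 87 with 2 to 9 copies (86.2%) and 155 of 163 with 10 or more (95.1%). Median best signals of those with a summit were 12.1, 15.4 and 16.9 in that order, and the shares of genes with a thresholded region were 15.1%, 21.8% and 22.7%. The difference in median signal between members at genes of several copies and of 1 copy was 4.65 in the pooled list, where the median member had 13.3. Without replicate 3 it was 0.38, on the other signal scale of the replicate 2 list, where the median was 5.26. Across members the Spearman rho of signal and copies was 0.12 (n = 317, shared libraries). By short sequence the split was wider. Of the 251 genes with no 32-mer found once in the genome, 231 had a summit (92.0%), and of the 67 with some, 57 (85.1%). Of the 18 genes with at least 90% unique 32-mers, 7 had a summit (38.9%), with a median best signal of 6.32 and none of them at a thresholded region. Pseudogenes ran the other way, with a summit at 4 of 25 genes with no unique 32-mer (16%), 13 of 40 with some (32.5%) and 49 of 115 with at least 90% (42.6%). The sources used here do not say how reads that match several places were treated, and the part of this in the levels was not tested. Some of the 18 tRNA genes with at least 90% unique 32-mers also lack an exact A box or B box match. Among them are T10B9.t1 and ZK39.t1 without a summit, and T13B5.t2 and K11H12.t1 with one. Unique sequence and box matches were not separated for these genes.

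**Figure D3:**
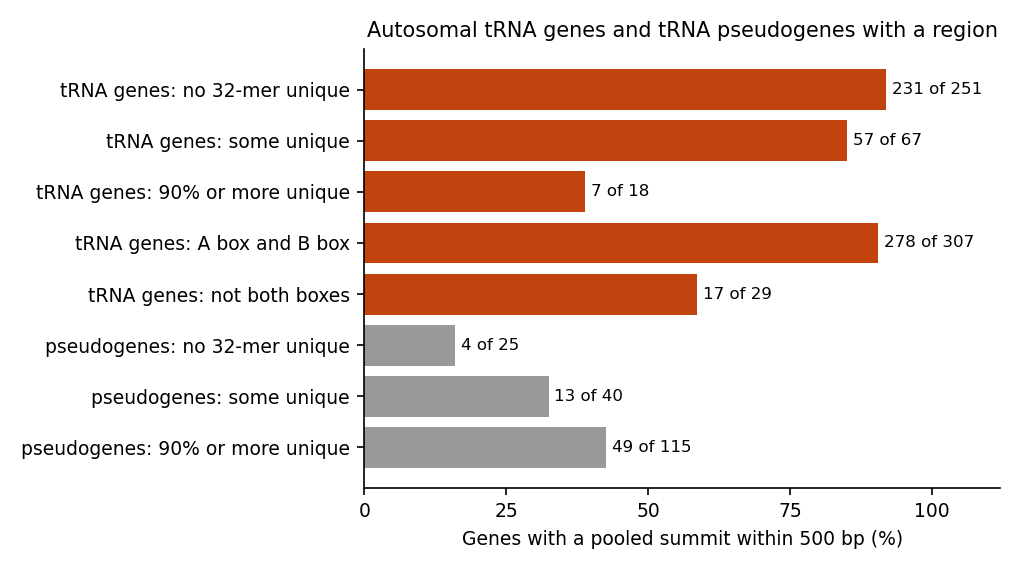
Percent of autosomal tRNA genes (orange) and tRNA pseudogenes (grey) with a pooled summit within 500 bp, by the share of 32-mers that are unique in the genome and, for tRNA genes, by exact A box and B box matches. The share is 92.0% for tRNA genes with no unique 32-mer and 38.9% for those with at least 90%, whereas for pseudogenes it is 16% and 42.6%.

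Signal was also read by the sequence at the summit itself. At 32 members none of the 32-mers over the summit base was unique in the genome, and these had a median signal of 17.2, with 10 thresholded regions. At 125 members some were unique, with a median of 16.1 and 28 thresholded regions, and at 136 members all were, with a median of 12.0 and 22 thresholded regions. The other 24 members, with summits far from their gene, were not counted. Within 100 bp of the gene, the 110 members with a fully unique summit had a median signal of 14.2 with 21 thresholded regions, against 16.4 with 38 over the other 155. The strongest member, at T23F1.t2, had a fully unique summit beside a gene of 24 copies.

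Best signals of identical genes spanned a wide range in the pooled list. A best signal can come from a region that lies nearer to another tRNA gene. Whether the ranges repeat between replicates was not tested, and over all members matched in both the replicate signals had a Spearman rho of 0.14. The sequences with 10 or more copies formed 19 families, which held 163 autosomal genes, and in 12 families every autosomal gene had a summit. The ratio of the highest to the lowest best signal within a family had a median of 5.14 and ran from 1.09 to 9.80, while the family medians ran from 10.7 to 22.6. Both the lowest ratio and the highest median are those of a histidine family with a summit at 2 of 3 autosomal genes. A glycine sequence with 18 autosomal genes had a summit at all 18, with best signals from 3.78 to 35.4 and a median of 15.8. The lysine sequence of B0350.t1 had one at 14 of 15 genes, with 8.13 to 41.8 and a median of 21.3. Its highest value, 41.8, is that of the member nearest to the threonine gene W09G10.t3. The proline sequence printed above for T23F1.t2 had one at all 11 of its autosomal genes, with 6.03 to 51.4 and a median of 19.5. W09D6.t1, with those same letters, had a signal of 27.6, 12.8 in replicate 2 and 12.8 in replicate 3. It lies in an intron of rsa-2, a gene of spindle assembly. Reads that lie wholly inside identical genes cannot be told apart, and at some copies the flanks are repeated as well. The summits at F57G8.t4 and F57G8.t3, for example, lay 3 and 1 bp upstream of genes of 18 copies and had no unique 32-mer over them.

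Every standard amino acid was represented, and the isotypes overlapped in signal. All genes had a summit for asparagine (14 of 14), aspartate (15 of 15), cysteine (6 of 6), glutamate (18 of 18) and tryptophan (7 of 7), and so did the single selenocysteine gene. The lowest shares were those of histidine (8 of 11, 72.7%), isoleucine (12 of 16, 75%), phenylalanine (6 of 8, 75%) and serine (16 of 21, 76.2%). The largest isotype, glycine, had a summit at 29 of 35 genes (82.9%). By median best signal, isotypes with at least 6 genes ran from 9.91 for tryptophan to 20.9 for lysine, and the ranges overlapped throughout, with lysine spanning 4.97 to 51.4 and tryptophan 5.87 to 26.7. A summit near 2 genes counts for both in this measure. With each member given to its nearest gene, the median signal ran from 8.61 for tryptophan to 17.2 for isoleucine, and lysine stood at 13.2.

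A thresholded region lay within 500 bp of 5 of 12 glutamine genes (41.7%), 2 of 6 cysteine genes and 5 of 16 isoleucine genes (31.3%), against 69 of all 336 autosomal tRNA genes (20.5%). The glutamine genes F08G5.t3 and F08G5.t2 share 1 such region. With each member given to its nearest gene, 4 of 12 glutamine members (33.3%) and 5 of 14 isoleucine members (35.7%) were thresholded regions. Leucine stood at the other end, with 21 of 22 genes at a summit but 1 gene (4.55%) at a thresholded region, F49C5.t3, and the tRNA gene nearest to that region was the lysine gene F49C5.t4. The strongest member nearest to a leucine gene was at F22B7.t1 in an intron of twk-7, a potassium channel gene, on chromosome III. Its pooled signal was 19.5, with 7.96 in replicate 2 and 10.6 in replicate 3. Methionine genes, which include the initiator tRNA, had a summit at 10 of 12 and a thresholded region at 1 of 12.

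**Figure D4:**
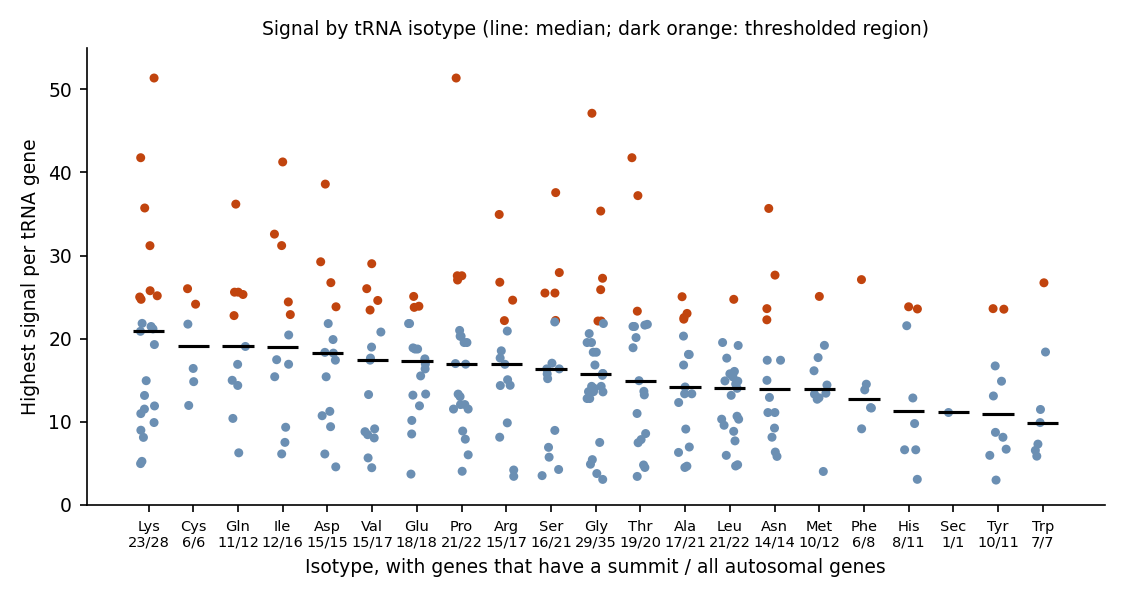
Highest signal of any pooled region within 500 bp of each autosomal tRNA gene by isotype, ordered by the median (line), with genes at a thresholded region in orange. Below each isotype stand the genes with a summit over all its autosomal genes. Medians run from 20.9 for lysine to 9.91 for tryptophan, and the ranges of all isotypes with at least 6 genes overlap.

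Several tryptophan and glutamate genes carry names from genetic screens or studies and were picked out after their values were seen. The sup genes are sites of amber suppressor mutations, in which a tryptophan tRNA is changed to read a stop codon. sup-24 on chromosome IV had a pooled signal of 26.7, with 7.28 in replicate 2 and 13.0 in replicate 3, and was a thresholded region. sup-5 on chromosome III, in an intron of fli-1, had 9.91, with no match in replicate 2 and 6.67 in replicate 3. sup-29 on chromosome IV had 6.56, with no match in replicate 2 and 6.46 in replicate 3. These 3 genes belong to a family of 10 identical nuclear copies with 6 on the autosomes, where best signals ran from 6.56 to 26.7. rtw-6 of the same family had 11.5. The glutamate genes rte-4 and rte-2 had 15.5 and 13.2, each with a summit inside the gene.

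The cysteine isotype, with a summit at each of its 6 genes, shows how far single genes ranged. Its 7 members had pooled signals from 6.61 to 26.0. The highest, at C37A2.t1 on chromosome I (26.0), and the one at F32B4.t1 on the same chromosome (24.1) were thresholded regions. The lowest, 6.61, was a second region of C37A2.t1, with its summit 204 bp from the 5′ end, and was not a thresholded region. The first region of C37A2.t1 had 7.69 in replicate 2 and 19.6 in replicate 3, and F32B4.t1 had 6.60 and 15.5. T28C12.t1 on chromosome V, a gene of 1 copy, had 21.8, with 4.17 in replicate 2 and 15.9 in replicate 3. ZC412.t2, F53F8.t1 and K04A8.t3 on chromosome V had pooled signals of 16.4, 14.8 and 12.0, and F53F8.t1 was the one of these with a match in replicate 2 (3.44). All 6 genes lie in introns.

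By host gene and strand the members overlapped in signal. By the place of the nearest tRNA gene, 179 members (56.5%) were in introns of protein-coding genes, 129 between genes and 9 in exons. Their median signals were 12.9, 14.5 and 8.97, and the shares of thresholded regions were 15.6% (28), 21.7% (28) and 44.4% (4). For the 113 members at genes on the strand of their host the median was 11.9, with 17 thresholded, and for the 75 on the opposite strand it was 13.2, with 15. Counted by gene, 165 of 189 intronic genes (87.3%) and 123 of 138 between genes (89.1%) had a summit. So did 104 of 119 genes on the strand of their host (87.4%) and 68 of 79 on the opposite strand (86.1%). Median best signals were 13.5 on the same strand and 17.5 on the opposite strand, with a thresholded region at 15.1% and 22.8% of genes.

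The 9 exonic members lay at 7 tRNA genes. K02D7.t1 in an exon of grl-26, a gene of the ground-like family, had a signal of 38.6 with its summit 26 bp into the tRNA gene. K04A8.t2 in lipl-4, a lysosomal lipase gene, had 28.0 and a second, upstream member of 8.56. Y69A2AR.t2 in mdf-2, a spindle checkpoint gene, had 23.9 with 9.21 in replicate 2 and 16.0 in replicate 3, although its sequence above holds no exact B box match. W02G9.t2, annotated in both kel-8 and thum-1, had 23.3, with 3.16 in replicate 2 and 17.0 in replicate 3. The other 4 members had 3.11 to 8.97. Of the 317 members, 70 also lay in the 5′ window of a protein-coding gene, with a median of 14.2, against 13.1 for the 247 outside such windows.

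tRNA genes within reach of the same summit were common. A summit lay within 500 bp of 2 tRNA genes at 39 members, which involved 62 genes. In 29 of the 39 both genes were of 1 isotype, in 24 of these on opposite strands, and 19 of the 39 summits lay between the genes. The 39 had a median signal of 14.9 with 9 thresholded regions, against 13.3 with 51 for the 278 at 1 gene. Examples besides the strongest member are W09D6.t1 with W09D6.t2 (both proline), F42A10.t1 with F42A10.t2 (both serine, chromosome III, 25.5) and Y22D7AL.t3 with Y22D7AL.t4 (methionine and glutamate, chromosome III, 25.1). Genes with a neighbouring tRNA gene at 500 bp or less had a summit in 60 of 62 cases (96.8%), against 163 of 190 (85.8%) with the neighbour over 5000 bp away. A shared summit counts for both genes, and its part in this difference was not tested.

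Conversely, 57 genes had 2 members and 2 genes had 3, so the 317 regions are not independent sites. In 27 of these 59 genes the summits lay on both sides of the gene, and in 28 a summit lay inside it. The outer summits were a median of 412 bp apart (199 to 631). At C16D9.t2, a leucine gene on chromosome V, 3 members had signals of 9.59, 9.06 and 3.48 at −70, 184 and −281 bp. Of the 17 genes with an annotated tRNA intron, removed by splicing of the precursor, 16 had a summit (94.1%), with a median best signal of 14.0 against 15.8 for the 279 other genes with a summit.

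The replicates differed in the length of their lists, with 12414 regions in replicate 2 and 29326 in replicate 3. A member overlapped a replicate 2 region in 220 of 317 cases (69.4%), against 28.1% of all autosomal regions, and a replicate 3 region in 292 cases (92.1%), against 66.6%. Both replicates matched 205 members (64.7%), against 15.7%, and neither matched 10. Matches were more frequent at higher ranks of the pooled list, and members rank high, so the shares are also given by rank. In the first 1% of the list, 98.0% of 51 members were matched in both, against 97.1% of all autosomal regions there. From 1% to 10% it was 79.7% of 153 members, against 59.1%, from 10% to 50% it was 35.6% of 73, against 17.8%, and in the lower 50% it was 17.5% of 40, against 4.66%. These bins are wide and do not match rank within them. The median member stood at 2.79% in the bin from 1% to 10%, 21.6% in that from 10% to 50% and 74.2% in the lowest. The pooled list was made from the same reads, so a match is no separate experiment, and 1 replicate region can match more than 1 member. Where matched, members stood at a median of 11.2% of the replicate 2 list and 4.16% of the replicate 3 list, against 38.3% and 33.7% for all autosomal regions. The lists differ in length, so a lower percent in replicate 3 need not be a higher place in the order.

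Within the 205 members matched in both, the 2 lists ordered the regions differently. The Spearman rho of replicate 2 and replicate 3 signals was 0.14, against 0.30 over the 3973 autosomal regions matched in both, across regions that share their libraries. Among thresholded regions matched in both, it was −0.19 over 59 members and −0.08 over 180 other autosomal regions. The thresholded list was itself made from both replicates, so rho within it cannot show whether a low value is particular to tRNA genes. Members matched in both also stood higher in the lists, at medians of 8.93% and 2.76% in replicates 2 and 3. The 3973 regions stood at 34.8% and 24.4%, and the part of this in the rho was not tested. For the members, the pooled signal had a rho of 0.49 with replicate 2 and 0.77 with replicate 3. The largest differences in rank percent among members were at M01E10.t2 (glutamate, chromosome III), Y54G2A.t2 (aspartate, chromosome IV) and F49D11.t2 (glycine, chromosome I). They stood at 93.6%, 93.2% and 94.4% of the replicate 2 list but at 0.641%, 1.53% and 1.99% of the replicate 3 list. Replicate 2 gave the lower rank percent at 62 of the 205 members (30.2%), against 1583 of the 3973 autosomal regions (39.8%). Its list is shorter, so the same place in the order is a higher percent there. Among thresholded regions matched in both, it did so at 11 of 59 members (18.6%) and 47 of 180 other autosomal regions (26.1%).

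**Figure D5:**
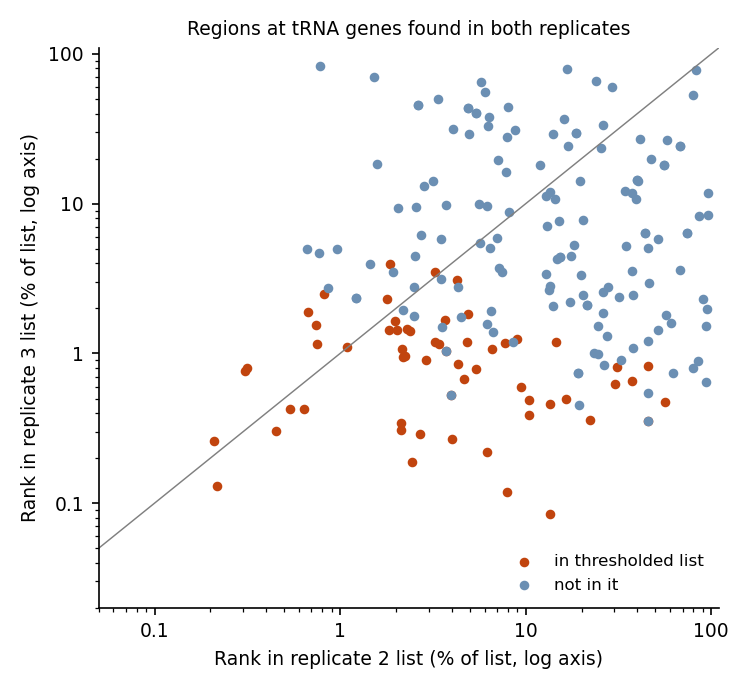
Rank in the replicate 2 list (horizontal) and in the replicate 3 list (vertical), each in percent of its list with the highest signal at the low end (log axes), for the 205 regions at tRNA genes matched in both. The grey line marks equal percents, orange points are thresholded regions, and the 62 points above the line have a lower percent in replicate 2. The lists differ in length, so equal percents are not equal places in the order.

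The replicate lists were also read on their own, without the pooled regions. The replicate 2 list held 223 regions at autosomal tRNA genes by the same rule, at 229 genes (68.2%), with a median summit at 32 bp. The replicate 3 list held 288 at 286 genes (85.1%), with a median summit at 31 bp. These regions stood at a median of 12.9% of the replicate 2 list and 5.02% of the replicate 3 list, against 50.1% and 49.9% for all autosomal regions. Matches on chromosome I were split otherwise. There, 86.0% of the 57 members were matched in replicate 2 and 84.2% in replicate 3, whereas on the other autosomes replicate 2 matched 62.7% to 67.7% and replicate 3 90.3% to 97.3%. Over all autosomal regions the shares ran from 26.7% to 29.8% and from 64.0% to 68.2% by chromosome.

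Some other genes of RNA polymerase III were set beside the members. The genes for U6 small nuclear RNA and signal recognition particle RNA were not counted, since the annotation search did not find them by name. rpr-1, the RNA of ribonuclease P that trims tRNA precursors, had a highest pooled signal of 44.6, and mrpr-1, the RNA of ribonuclease MRP, 27.8, both at thresholded regions. The Y RNA gene yrn-1 had 14.3. None of the 16 annotated 5S ribosomal RNA genes, a tandem repeat, had a pooled summit within 500 bp. Of 10 genes for the transcription machinery, 4 had a pooled summit in the 5′ window, close to the 42.4% of all autosomal protein-coding genes, and none a thresholded one. The 4 were tftc-5 (9.39), snpc-4 (8.17), mafr-1 (3.38) and rpc-1 (3.19), which encode a TFIIIC subunit, a small nuclear RNA activating complex subunit, the repressor MAF1 and the largest polymerase subunit.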

How the data were processed

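LSY-27 ChIP-seq lists came from 2 biological replicates in 1 group. Per the deposited text beside the lists, the authors called a relaxed list for each replicate against a control and on the pooled replicates, and made a thresholded list by IDR. For the caller, aligner, read depth and treatment of reads matching several places, the sources used here give nothing, and no value carries an interval from reads. The control itself was not analysed here. The deposited signal value per region was used within a list, and ranks between lists. The deposited −log10 q-values were equal for 174 members and not used.

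The ce11 lists were set against RefSeq WBcel235. Overlap meant at least 1 bp. Genes with identical sequences were counted as copies, and 32-mers over both strands of the genome. Named regions were the 10 strongest, the highest per chromosome and isotype, the lowest 2, those at the distance limit, those near the most tRNA genes and the 3 with the largest rank difference. Members and lists were chosen with earlier results of these data known. No test was run, since 1 group allows none. The assignment of summits was tested on simulated data. Analyses used Python 3.11.15, numpy 2.4.6, pandas 2.3.3 and matplotlib 3.10.9.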

Additional observations from a re-analysis of the deposited data

How the results depend on the processing

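Of 65 alternatives over 12 results, 33 were counted as leaving a value the same and 32 as moving it. The limit was the spread between the replicates' own lists, except that the number of members was judged by its fold change. A distance of 200 bp gave 7.24% of members near 2 tRNA genes (12.3% at 500 bp). A distance of 1000 bp gave 20.8%, a median summit at 23 bp and 57.7% in introns (56.5% at 500 bp). Summits inside the gene left 137 members at 40.8% of genes, with 25.5% overlapping the thresholded list, a median signal of 16.1, a median summit at 31 bp, 59.1% in introns and 0% near 2 genes.

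Thresholded regions alone gave 60 members at 20.5% of genes, a median signal of 25.7, a median rank of 59.9% of that shorter list, 46.7% in introns and 15% near 2 genes, and the gap between the highest and lowest isotype share (27.3 percentage points, isotypes with at least 6 genes) became 37.1. Matching summits within 100 bp left 47.3% of members in both replicates (64.7% by overlap). With 1 mismatch allowed in each box, the difference between genes with and without a member was 7.32 percentage points (23.5 exact).

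The lists of single replicates, whose signal scales differ, gave 223 to 288 members at 68.2% to 85.1% of genes, with a median signal of 5.26 to 8.96, a median rank of 5.02% to 12.9%, a median summit at 31 to 32 bp and 11.8% to 14.3% near 2 genes. The isotype gap was 38.1 to 43.4 points and the box difference 12.0 to 25.1 points. The difference in median signal between members at genes of 2 or more copies and of 1 copy, 4.65 in the pooled list, was 0.38 without replicate 3 and 2.83 without replicate 2. The signal scale was not given and depth is unknown, so levels can be read only within a list. No paired analysis was possible because there is 1 group.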
